A study of Mus musculus with 6 samples.

Results

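The genes described here are 10 stress genes of the mouse: 9 molecular chaperones (Hspa1a, Hspa1b, Hspb1, Hspb8, Hsph1, Dnajb1, Hspa8, Hsp90aa1 and Hspa5) and Ddit3, which encodes the transcription factor CHOP. They were chosen by name, as the rows of the deposited count table that carry these symbols, and all 10 were found among 23420 genes. These genes and the lists used below were chosen with earlier results of these data known. Their counts beside shares of all genes are therefore a description. The table holds RNA-seq counts of whole retinas in 3 groups of 2 libraries each. Control retinas are labelled as untreated. Light-exposed retinas were taken 4 days after 1 h of bright white light, given in the labels as 10000 lux. The third group had the same light exposure and daily intraperitoneal minocycline, a tetracycline antibiotic, at 45 mg/kg for 4 days. The methods start the injections on the day before light, with 2 a day for the first 2 days and 1 a day after that. The labels name the strain CD1, whereas the methods name adult albino BALB/cJ mice of both sexes and a higher light intensity. The methods also describe a saline solvent control where indicated, but the labels do not say whether the control or light-exposed mice of these libraries received it. The methods call the libraries biological replicates but do not say how many animals each holds, so p-values measure the spread between these libraries. Both minocycline columns carry the same header, and these libraries are therefore called minocycline A and minocycline B.

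Chaperones bind unfolded proteins and help them fold, and cells make more of them when unfolded protein accumulates. In the cytosol, the factor HSF1 drives this heat shock response by binding inverted repeats of the letters GAA in the promoters of chaperone genes. In the endoplasmic reticulum, the unfolded protein response is started by the membrane sensors IRE1, PERK and ATF6. ATF6 acts through endoplasmic reticulum stress elements, as in the promoter of Hspa5, while PERK acts through ATF4, whose targets include Ddit3, Trib3 and Atf3. Rod photoreceptors send large amounts of rhodopsin through the endoplasmic reticulum, and this response has been studied widely in photoreceptor degeneration.

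The promoter stretches below show which of the 10 genes carry these letters. They come from RefSeq on GRCm38.p6, whose table held 8 of the 10 genes (Hspa8 and Hsp90aa1 were not among them), and the 250 bases before each annotated start were searched on both strands. Capitals mark the matched letters, and each stretch is written 5′ to 3′ on the strand of its gene.
Hspa5, chr2:34772020-34772049, plus strand: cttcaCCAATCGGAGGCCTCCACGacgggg
Hspb1, chr5:135887801-135887830, plus strand: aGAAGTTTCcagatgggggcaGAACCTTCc
Hsph1, chr5:149636351-149636380, minus strand: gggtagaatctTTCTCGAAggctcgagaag
Hspa1a, chr17:34972242-34972271, minus strand: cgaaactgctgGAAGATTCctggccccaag
Hspa1b, chr17:34959324-34959353, minus strand: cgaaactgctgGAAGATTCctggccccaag
In Hspa5 the capitals are an endoplasmic reticulum stress element (CCAAT, 9 bases of any kind, CCACG), 65 to 47 bases before the start, which 0.113% of all 32851 promoters held. In the other stretches they are the core of a heat shock element, either GAANNTTC (6.69% of promoters) or TTCNNGAA (7.17%), and 12.8% of promoters held at least 1 of these. Hspb1 had 2 such cores, 117 to 110 and 97 to 90 bases before its start. Hsph1 had 1 core, 33 to 26 bases before the nearer of its 2 annotated starts. A longer heat shock element of 3 repeat units was searched too, and 0.460% of promoters held it in each orientation. It matched no window of the 8 genes, so the heat shock matches given here are of the shorter core only. No window of Hspb8, Dnajb1 or Ddit3 matched a heat shock core, the stress element, TGACGTGG or TGATGNAAT, which says only that these letters were not in the window. For Dnajb1, the window at chr8:83608298-83608547 lies inside the gene, which starts at 83608193 in the gene annotation used here. The result for Dnajb1 is therefore only in part one of promoter sequence.

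Hspa1a and Hspa1b, neighbours on chromosome 17, matched in 247 of 250 positions (98.8%) of the whole window. Both windows are shown. They lie before the annotated starts, so their likeness does not bear on how reads of the pair are told apart. Capitals again mark the heat shock core, 104 to 97 bases before the start.
Hspa1a, chr17:34972157-34972406, minus strand: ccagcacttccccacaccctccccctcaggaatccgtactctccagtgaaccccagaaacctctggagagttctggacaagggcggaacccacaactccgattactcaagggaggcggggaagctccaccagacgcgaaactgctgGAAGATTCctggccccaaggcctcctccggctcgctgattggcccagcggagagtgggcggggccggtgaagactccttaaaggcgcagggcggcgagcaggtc
Hspa1b, chr17:34959239-34959488, minus strand: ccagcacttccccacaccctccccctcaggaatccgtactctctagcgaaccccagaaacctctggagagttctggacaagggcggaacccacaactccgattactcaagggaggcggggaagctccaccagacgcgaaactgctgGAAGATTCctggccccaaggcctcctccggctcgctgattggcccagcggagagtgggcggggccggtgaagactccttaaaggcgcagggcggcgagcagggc
Much of the transcribed sequence is shared too. Of the 50-base windows in the transcribed sequence of Hspa1b, 62.3% occurred in Hspa1a too, and 66.3% of those of Hspa1a occurred in another gene, mainly Hspa1b. How the authors' counting treated such reads is not given in the sources used here, so the split between both genes is uncertain. The same holds for Hspb1 (50.1% of windows shared, mainly with Hsp25-ps1), Hsp90aa1 (47.5%, mainly with Gm12346) and Hspa8 (39.4%, with 16 other genes). Hspb8, Hsph1 and Hspa5 shared no window, and Ddit3 and Dnajb1 shared 1.11% and 0.412%.

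Libraries held 15205930 to 22856922 counts, and levels are given as CPM, the count scaled to the same TMM-adjusted library size in every library. A count of 0 allows up to 3 counts, or 0.131 to 0.214 CPM, for counting error only. Differences were tested by the quasi-likelihood method of edgeR, and p-values were adjusted over all tested genes of a comparison (Benjamini-Hochberg). The 12 rod markers, led by rhodopsin, summed to 46100 to 111300 CPM, so that the defining genes of the retina were present in every library. Some libraries stood apart in other marker lists. Control 1 was the only library rich in the female transcript Xist (77778 counts against 25 to 188). Light-exposed library 1 held 207 CPM of lens crystallin and lens membrane genes against at most 22.0 CPM elsewhere, and both minocycline libraries held 213 and 301 CPM of corneal epithelium genes against at most 21.6 CPM elsewhere.

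Compared per kilobase of exon, the mean level of the 10 genes in control retinas spanned from 88.6 CPM for Hsp90aa1, the cytosolic HSP90, to 0.379 CPM for the small heat shock protein Hspb1. Hspa5 (BiP, the HSP70 of the endoplasmic reticulum) followed at 60.2 CPM per kilobase and Ddit3 at 29.5. Dnajb1, a J protein that delivers clients to HSP70, had 12.2 CPM per kilobase, and Hsph1, an HSP110 that exchanges nucleotide on HSP70, had 8.93. The stress-inducible HSP70 genes Hspa1b and Hspa1a had 4.04 and 3.55 CPM per kilobase, and Hspb8, a small heat shock protein of chaperone-assisted autophagy, had 2.14. Hspa8, the constitutive HSP70, had only 1.91 CPM per kilobase, beside its 39.4% of shared windows. Whether reads of Hspa8 went to its copies was not tested.

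**Figure D1:**
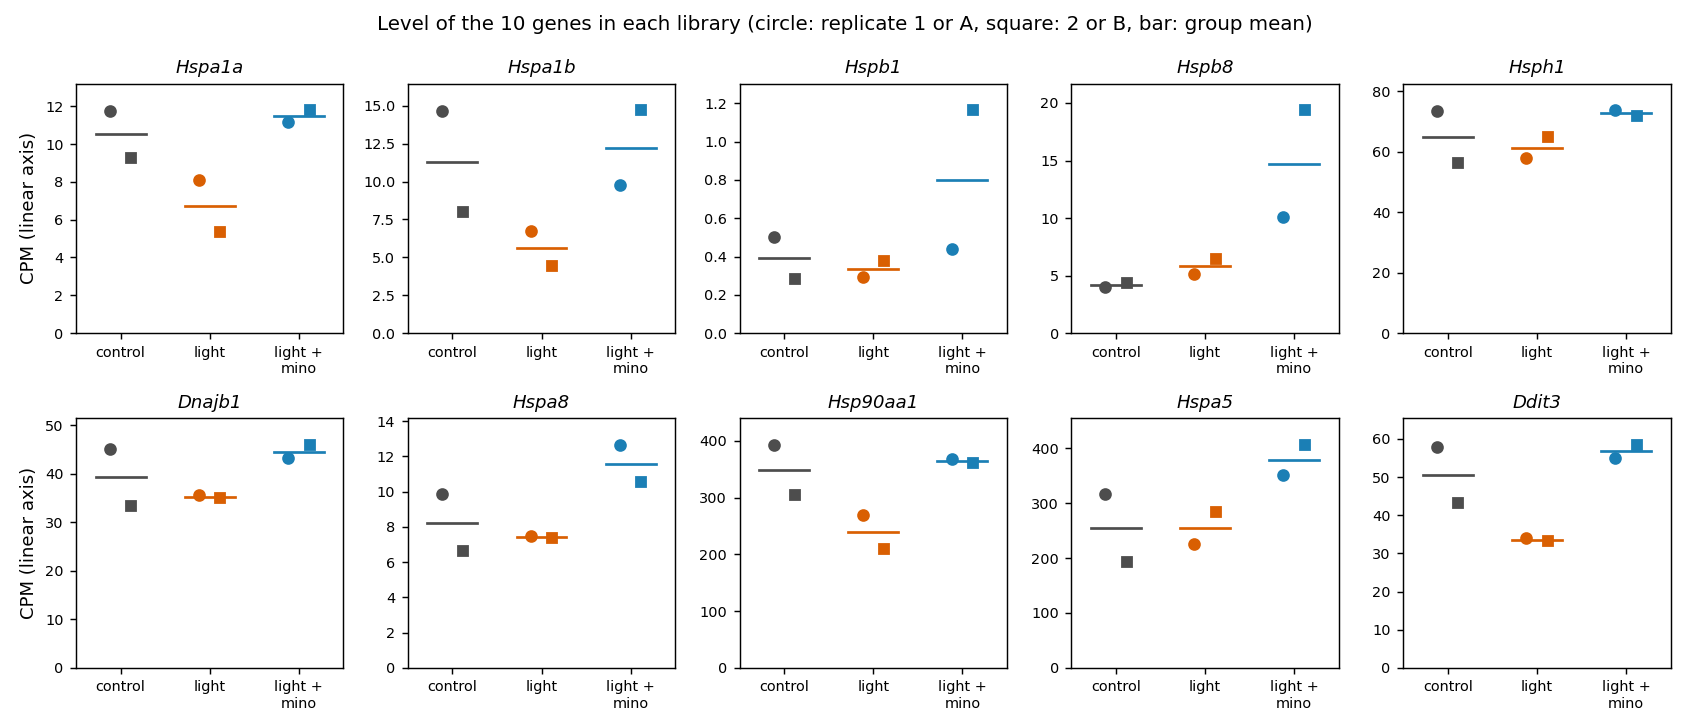
CPM (linear axis from 0) of each of the 10 genes in the 2 control, 2 light-exposed and 2 light-exposed plus minocycline retinas; circles are replicate 1 or minocycline A, squares replicate 2 or minocycline B, bars the group means. In all 10 genes both minocycline libraries lie above both light-exposed libraries; Hspa1a, Hspa1b, Hsp90aa1 and Ddit3 are lower in both light-exposed retinas than in both controls.

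Light exposure was compared with control to ask whether the damaged retina still showed a chaperone response on day 4. None of the 9 genes tested passed an adjusted p of 0.05, against 11.3% of all 14349 genes tested. At an unadjusted p of 0.05, 0 of the 9 were higher and 3 were lower (Hspa1b, Hsp90aa1 and Ddit3), where 16.5% of all genes were higher and 12.4% were lower. Both light-exposed libraries lay below both controls in 4 of the 9 genes, against 30.8% of all genes. The median log2 difference of the 9 genes was -0.14, beside 0.0025 over all genes. Another tool, DESeq2, passed 1 of the 9, Hsp90aa1, with an adjusted p of 0.0376, and 13.3% of all genes. In whole-retina RNA, fewer cells of a type and less RNA per cell cannot be told apart.

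The inducible HSP70 pair showed low levels in light-exposed retinas. Hspa1a stood at 11.8 and 9.28 CPM in control 1 and 2 and at 8.10 and 5.36 CPM in light-exposed 1 and 2. Hspa1b stood at 14.6 and 8.01 CPM in the controls and at 6.76 and 4.45 CPM after light. For both genes, the light-exposed libraries lay below both controls, although Hspa1b in control 2 was close to light-exposed 1. The log2 fold change was -0.64 ± 0.295 (SE, adjusted p = 0.179, edgeR) for Hspa1a and -1.01 ± 0.348 (adjusted p = 0.0877, edgeR) for Hspa1b. Since their reads cannot be fully separated, the counts of both were also summed. The summed level was 26.4 and 17.3 CPM in the controls and 14.9 and 9.81 CPM after light, a log2 fold change of -0.82 ± 0.271 (SE, adjusted p = 0.0799, edgeR). With each library left out in turn, the log2 fold change of Hspa1a ran from -0.97 (without light-exposed 1) to -0.37 (without light-exposed 2) and never passed. That of Hspa1b ran from -1.38 (without control 2) to -0.52 (without control 1, adjusted p = 0.392, edgeR). It passed in 1 of these 4 fits, without light-exposed library 1, the one rich in lens genes (-1.33, adjusted p = 0.0188, edgeR).

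Hsp90aa1 and Ddit3 also lay lower after light. Hsp90aa1 had 392.6 and 303.9 CPM in the controls and 269 and 210 CPM in the light-exposed retinas. The groups did not overlap, and the log2 fold change was -0.53 ± 0.187 (SE, adjusted p = 0.0903, edgeR). Ddit3 had 58.0 and 43.1 CPM in the controls against 33.9 and 33.2 CPM after light. Its 2 light-exposed values were nearly equal while its controls were further apart, and its log2 fold change of -0.58 ± 0.173 gave the lowest adjusted p of the 10 genes in this comparison (0.0535, edgeR). The interval of the Ddit3 change ran from -0.96 to -0.20 at an unadjusted 95% level. With 1 library left out the change itself ran from -0.78 (without control 2) to -0.36 (without control 1, adjusted p = 0.185, edgeR), and that of Hsp90aa1 from -0.72 (without light-exposed 1) to -0.35 (without control 1, adjusted p = 0.267, edgeR). In the same libraries the rod markers summed to 111300 and 86870 CPM in the controls and to 64800 and 46100 CPM after light; all 12 had negative fold changes and 2 passed the test. The part of this lower rod signal in the lower levels of these 4 genes was not tested.

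Hsph1, Dnajb1 and Hspa8 showed no difference past the spread of the replicates. Hsph1 had 73.6 and 56.2 CPM in the controls and 57.8 and 64.9 CPM after light, and Dnajb1 had 45.2 and 33.3 against 35.7 and 34.9 CPM. Hspa8 had 9.85 and 6.61 CPM in the controls and 7.46 and 7.35 CPM after light. In all 3 the light-exposed values lay between the 2 controls, and the log2 fold changes were -0.07, -0.14 and -0.14 (adjusted p 0.814, 0.636 and 0.780, edgeR). Scaling by total library size, or leaving out control 1, turned these 3 to positive values of 0.081 to 0.17.

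Hspa5 was level on average. It had 317 and 193 CPM in the controls and 226 and 285 CPM after light, a log2 fold change of 0.01 ± 0.236 (SE, adjusted p = 0.977, edgeR), with an unadjusted 95% interval from -0.52 to 0.55. The controls spanned both light-exposed values, and without control 2 the log2 fold change was -0.30. Hspb8 was the only gene of the 10 whose light-exposed libraries (5.13 and 6.45 CPM) both exceeded both controls (4.00 and 4.36 CPM), as in 30.1% of all genes. Its log2 fold change was 0.48 ± 0.315 (SE, adjusted p = 0.347, edgeR). Hspb1 was barely detected, with 7 and 4 counts in the controls and 5 and 8 counts after light, and was removed by the filter on low counts in every comparison.

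Light plus minocycline was compared with light alone to ask whether treatment moved these genes. The 9 tested genes were all higher with minocycline in the fit, and both minocycline libraries exceeded both light-exposed libraries in 9 of 9, against 26.8% of all 14750 genes tested. At an unadjusted p of 0.05, 8 of the 9 were higher, all but Hsph1, against 9.04% of all genes. None passed an adjusted p of 0.05, as was the case for nearly all genes (0.0542% passed). DESeq2 passed 5 of the 9: Ddit3 (adjusted p = 0.00117), Hsp90aa1 (0.00843), Hspb8 (0.0146), Hspa5 (0.0236) and Hspa1b (0.0432). It passed 8.12% of all genes. The median log2 difference was 0.66, beside 0.0062 over all genes. Several marker lists were higher in the same comparison: all 12 rod, 13 immediate early, 8 pigment, 9 corneal epithelium and 9 smooth muscle markers tested had positive values. Their part in the differences of the 9 genes was not tested. This comparison shares the 2 light-exposed libraries with the first, so that their low values enter both.

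**Figure D2:**
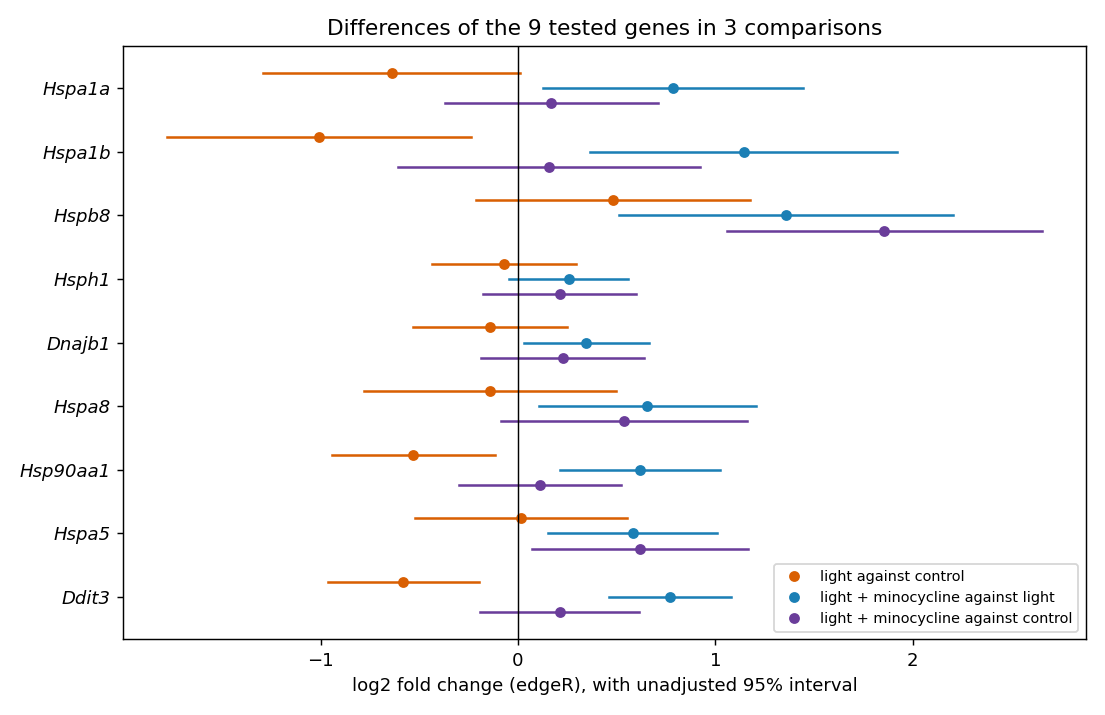
Log2 fold changes from edgeR (points) with unadjusted 95% intervals (lines) of the 9 tested genes, for light against control (orange), light plus minocycline against light (blue) and light plus minocycline against control (purple); comparisons share libraries. The blue points all lie right of 0, from 0.26 for Hsph1 to 1.36 for Hspb8, and the interval of Hspb8 against control lies right of 1.

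Ddit3 had 55.1 and 58.4 CPM in minocycline A and B against 33.9 and 33.2 CPM after light alone. The values of each group were close together and the groups did not overlap, and the log2 fold change was 0.77 ± 0.132 (SE, adjusted p = 0.0698, edgeR). Hsp90aa1 had 369 and 361 CPM with minocycline against 269 and 210 CPM, a log2 fold change of 0.62 ± 0.173 (SE, adjusted p = 0.115, edgeR) that ran from 0.43 without light-exposed 2 to 0.80 without light-exposed 1. Both genes stood within the range of the 2 controls with minocycline, apart from Ddit3 in minocycline B, which was 58.4 CPM against 58.0 CPM in control 1. With each library left out in turn, the log2 fold change of Ddit3 stayed between 0.71 and 0.83, and it passed in 1 of these 4 fits, without minocycline A (adjusted p = 0.0480, edgeR); without B the adjusted p was 0.155.

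Hspa1a had 11.2 and 11.8 CPM with minocycline, against 8.10 and 5.36 CPM after light alone, and Hspa1b had 9.79 and 14.7 CPM against 6.76 and 4.45 CPM. The log2 fold changes were 0.78 ± 0.282 and 1.14 ± 0.330 (SE, adjusted p 0.177 and 0.121, edgeR), and 0.96 ± 0.251 (adjusted p = 0.104, edgeR) for the summed pair. Both genes reached the level of the controls in the 2 minocycline libraries, and the summed level of 21.0 and 26.5 CPM overlapped the controls. With 1 library left out the log2 fold change ran from 0.49 (without light-exposed 2) to 1.10 (without light-exposed 1) for Hspa1a and from 0.81 to 1.46 for Hspa1b, and none of these values passed. The rod markers summed to 94610 and 101900 CPM with minocycline, above both light-exposed libraries and between the 2 controls.

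Among the partner chaperones, Dnajb1 had 43.2 and 45.9 CPM with minocycline and Hsph1 73.7 and 71.9 CPM. Their log2 fold changes against light alone were 0.35 ± 0.135 and 0.26 ± 0.129 (SE, adjusted p 0.202 and 0.304, edgeR). Hspa8 had 12.6 and 10.5 CPM, above all 4 other libraries, with a log2 fold change against light alone of 0.66 ± 0.235 (adjusted p = 0.176, edgeR). Hspa5, too, was highest with minocycline, at 351 and 406 CPM against 226 and 285 CPM after light alone. For Hspa5 this was a log2 fold change of 0.58 ± 0.182 (SE, adjusted p = 0.138, edgeR).

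Hspb8 differed most. It had 10.1 and 19.4 CPM in minocycline A and B, 5.13 and 6.45 CPM in the light-exposed retinas and 4.00 and 4.36 CPM in the controls. The 3 groups did not overlap, and minocycline B was the highest library by a wide margin. Against light alone the log2 fold change was 1.36 ± 0.358 (SE, adjusted p = 0.106, edgeR), and it rested on library B: without minocycline A it was 1.78 (adjusted p = 0.0346), and without minocycline B it was 0.80 (adjusted p = 0.290). The counts of Hspb1 were 10 and 22 with minocycline (0.437 and 1.16 CPM), so that this gene too was highest in minocycline B, although near the limit of detection.

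Light plus minocycline was last compared with control, the comparison without the low light-exposed libraries. None of the 9 genes passed (0.162% of all 14181 genes tested did). At an unadjusted p of 0.05, 2 of the 9 were higher, Hspb8 and Hspa5, against 5.39% of all genes. In 3 of the 9, these 2 and Hspa8, both minocycline libraries exceeded both controls, against 15.5% of all genes. The median log2 difference was 0.21, beside 0.021 over all genes. Hspb8 had a log2 fold change of 1.86 ± 0.350 (SE, adjusted p = 0.117, edgeR), which DESeq2 passed at an adjusted p of 0.000684, as it did 1.18% of all genes. It also passed when either minocycline library was left out, at 2.25 without A (adjusted p = 2.08e-08, edgeR) and 1.27 without B (adjusted p = 0.0283, edgeR), but not without control 1 (1.79, adjusted p = 0.406) or control 2 (1.93, adjusted p = 1). Hspa5 had 0.62 ± 0.238 (SE, adjusted p = 0.638, edgeR), with an unadjusted 95% interval from 0.071 to 1.16, and without control 1 or control 2 the value was 1.01 or 0.31. Hspa8 had 0.54 ± 0.275 (SE, adjusted p = 0.742, edgeR). The other 6 lay between 0.11 and 0.23, and Ddit3 at 0.21 had an interval from -0.19 to 0.62. With 1 library left out, Hspa8 ran from 0.29 to 0.84 and Ddit3 from 0.019 to 0.43. Dnajb1 ran from 0.031 to 0.45, Hsph1 from 0.037 to 0.41 and Hspa1a from 0.014 to 0.34. All 5 were lowest without control 2 and highest without control 1. Hspa1b and Hsp90aa1 went down to -0.21 and -0.055.

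**Figure D3:**
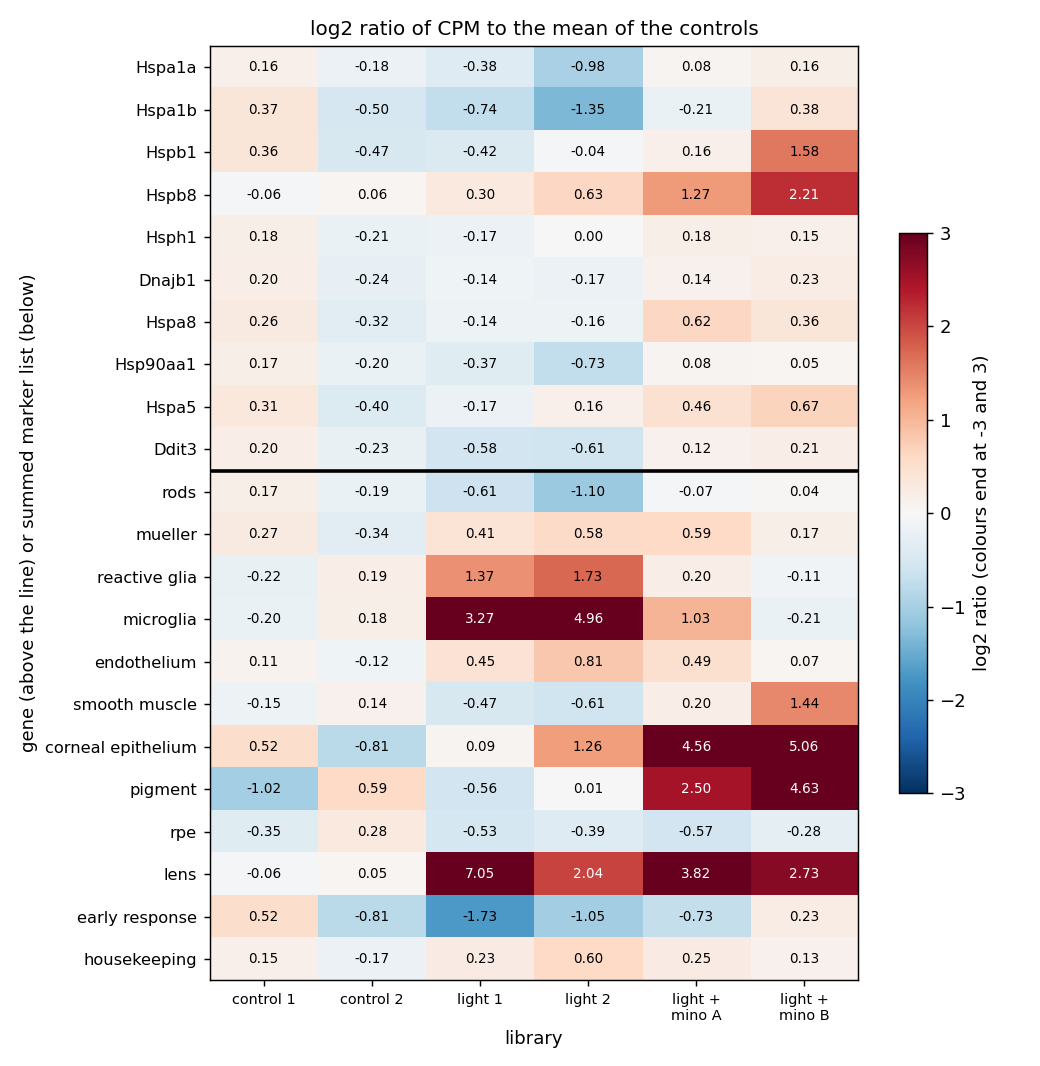
Log2 ratio of CPM to the mean of the 2 controls in each library (columns; colour scale from -3 to 3, values printed), for the 10 genes above the line and for the summed CPM of 12 marker lists below it. Hspb8 stands at 1.27 and 2.21 in minocycline A and B, where the pigment list reaches 4.63 and the corneal epithelium list at 4.56 and 5.06; the rod list is lowest after light, at -0.61 and -1.10.

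Several marker lists were set beside Hspb8 and Hspa5. The 8 pigment cell markers summed to 28.3 and 86.9 CPM in the controls, 39.0 and 58.1 CPM after light, and 326.5 and 1426 CPM in minocycline A and B. The 10 smooth muscle markers summed to 156 to 262 CPM in the 4 libraries without minocycline and to 273 and 644 CPM in A and B. For the 12 corneal epithelium markers the sums were 213 and 301 CPM in A and B, and 5.13 to 21.6 CPM elsewhere, where Krt14, Krt17, Dsg1a and Krtdap were at 0 in control 2 and light-exposed 2. In these 3 lists, as in Hspb8 and Hspa5, both minocycline libraries were the highest and B exceeded A. None of the 3 lists had a marker at 0 in A or B other than Krtdap. For minocycline against control, 3 of the 9 tested corneal epithelium markers passed, and no pigment or smooth muscle marker did. The part of the cells of these 3 lists in the levels of Hspb8 and Hspa5 was not tested. The list of retinal pigment epithelium had no positive value for minocycline against control among its 7 tested markers. It summed to 388 and 602 CPM in the controls and to 333 and 407 CPM in A and B. Immediate early genes, which respond to handling, summed to 2037 and 810 CPM in the controls, 428 and 688 CPM after light and 861 and 1667 CPM with minocycline. Control 1 and minocycline B were the highest libraries of this list, as they were in Hspa1a, Hspa1b, Dnajb1 and Ddit3. All 13 of its genes had negative values for light against control and all 13 had positive values for minocycline against light. The part of this list in the levels of the 10 genes was not tested.

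The wider protein folding network was described with 123 other genes in 10 lists, of which 115 were tested for light against control. Of these, 6 rose and 3 fell at an adjusted p of 0.05 (edgeR), together 9 of 115 beside 11.3% of all genes, and the median log2 fold change of the 115 was -0.08. Of these 9, 6 belonged to the list of the eIF2α and ATF4 branch, the translation arm of the stress response. With 23 tested genes, Ddit3 among them, this was the largest of the 10 lists. The remaining 3 were the small heat shock protein Cryab, the HSP90 co-chaperone Fkbp5 and the endoplasmic reticulum degradation gene Herpud1. DESeq2 passed 12 of the 115, against 13.3% of all genes.

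**Figure D4:**
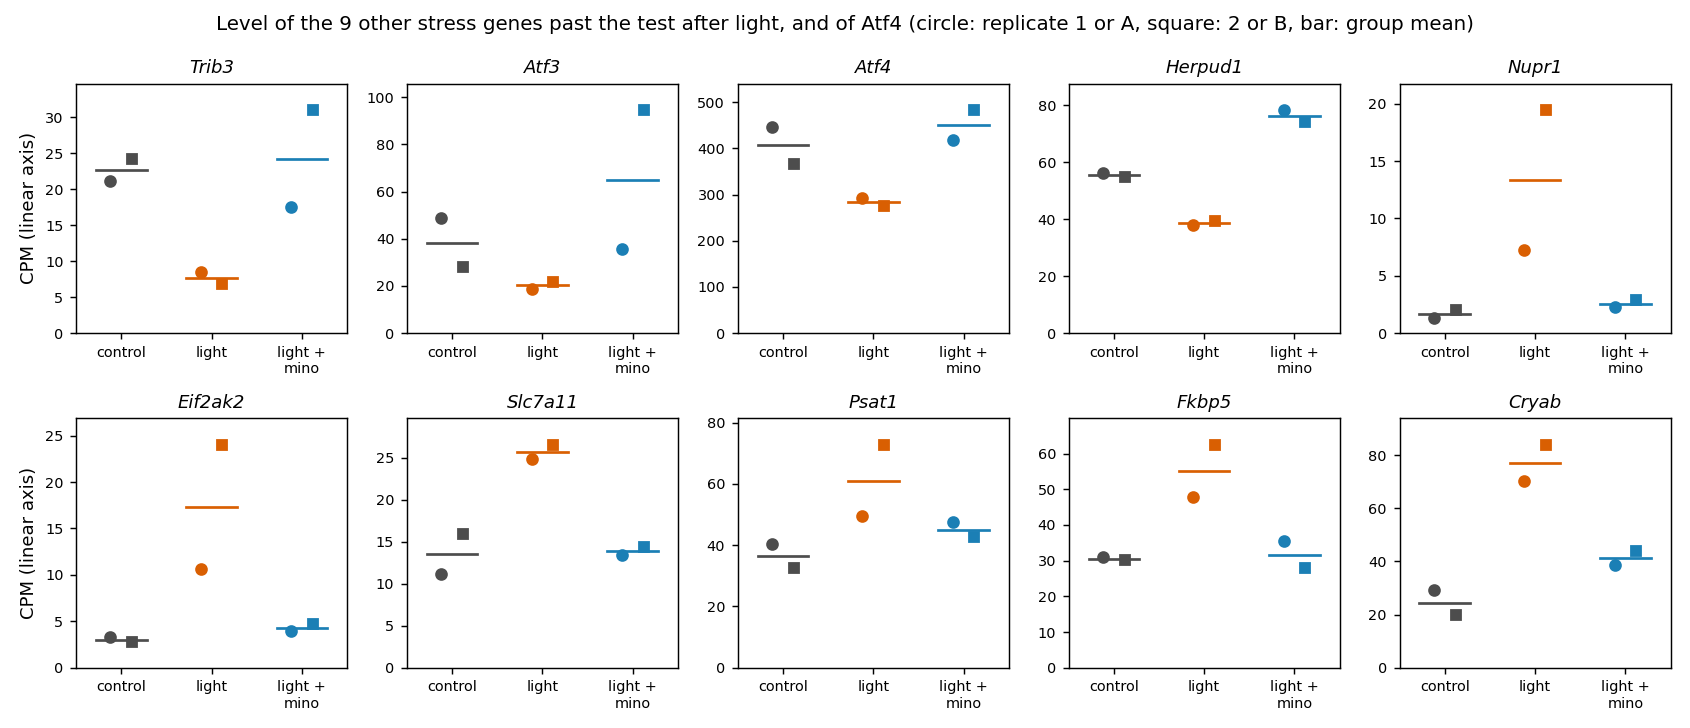
CPM (linear axis from 0) in each library of the 9 other protein folding stress genes past the test for light against control, and of Atf4; circles are replicate 1 or minocycline A, squares replicate 2 or minocycline B, bars the group means. Trib3, Atf3, Atf4 and Herpud1 are lowest in the 2 light-exposed retinas, and Nupr1, Eif2ak2, Slc7a11, Psat1, Fkbp5 and Cryab are highest there.

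The genes of the eIF2α and ATF4 branch that passed went in both directions, 4 higher and 2 lower. Trib3, a pseudokinase induced by ATF4 and CHOP, had 21.1 and 24.3 CPM in the controls and 8.45 and 6.87 CPM after light. It fell by 1.56 on the log2 scale (SE 0.223, adjusted p = 0.00806, edgeR). Atf3, a stress-induced transcription factor, had 48.7 and 28.1 CPM against 18.6 and 21.8 CPM and a log2 fold change of -0.91 (adjusted p = 0.0479, edgeR). The call on Atf3 was lost with all 6 libraries in 1 fit (adjusted p = 0.315), with DESeq2 size factors (0.0509), with total library size (log2 fold change -0.68, adjusted p = 0.115), without light-exposed 1 (0.0628) and without control 1 (-0.48, adjusted p = 0.166, edgeR). Atf3 is also in the immediate early list. The rod markers were lower in the same light-exposed libraries, and their part in the lower levels of Trib3, Atf3, Atf4 and Herpud1 was not tested. Atf4 itself, the factor upstream of Ddit3, had 447 and 365 CPM in the controls and 292 and 275 CPM after light, with a log2 fold change of -0.51 that did not pass with edgeR (adjusted p = 0.0763) but did with DESeq2 (0.0206). Slc7a11, the cystine transporter, went the other way, from 11.1 and 16.0 CPM to 24.9 and 26.5 CPM (log2 fold change 0.93, adjusted p = 0.0244, edgeR). Psat1, an enzyme of serine synthesis, rose by 0.76 (adjusted p = 0.0417, edgeR), a call lost with all 6 libraries in 1 fit (0.0529) and without light-exposed 2 (log2 fold change 0.45, adjusted p = 0.438).

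The largest rises were those of Nupr1 and Eif2ak2. Nupr1, a stress-induced chromatin protein, had 1.28 and 1.97 CPM in the controls and 7.22 and 19.4 CPM after light, a log2 fold change of 3.04 ± 0.528 (SE, adjusted p = 0.0181, edgeR). Eif2ak2 encodes PKR, the interferon-induced kinase of eIF2α. It had 3.28 and 2.74 CPM in the controls and 10.6 and 23.98 CPM after light, a log2 fold change of 2.53 ± 0.403 (SE, adjusted p = 0.0132, edgeR). For both genes light-exposed 2 held more than light-exposed 1, as did the 14 microglia markers, which summed to 38.7 and 50.5 CPM in the controls and 430.2 and 1388 CPM after light. Without light-exposed 2 the log2 fold change was 2.15 for Nupr1 and 1.82 for Eif2ak2, both past the test. Without control 1 or control 2 neither passed (adjusted p 0.149 and 0.163 for Nupr1, 0.106 and 0.162 for Eif2ak2, edgeR). The part of the microglia in these rises was not tested.

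Cryab (αB-crystallin) had 29.2 and 19.8 CPM in the controls and 70.2 and 83.8 CPM after light. It rose by 1.66 ± 0.198 (log2, SE, adjusted p = 0.00560, edgeR) and passed without any 1 of the 4 libraries. The reactive glia list stood at 283 and 378 CPM in the controls and 853 and 1091 CPM after light, with 7 of its 12 genes higher past the test. The 10 lens genes summed to 1.62 CPM or less in the controls, 207 and 6.40 CPM after light and 22.0 and 10.3 CPM with minocycline, and the lens crystallin Cryaa had 109 and 0.047 CPM after light. The parts of reactive glia and lens in the level of Cryab, which is also a lens crystallin, were not tested. Fkbp5, a glucocorticoid-induced immunophilin, rose from 31.0 and 30.2 CPM to 47.7 and 62.4 CPM (log2 fold change 0.86, adjusted p = 0.0161, edgeR). Herpud1, of the endoplasmic reticulum degradation machinery, fell from 56.1 and 54.8 CPM to 37.9 and 39.2 CPM (log2 fold change -0.51, adjusted p = 0.0448, edgeR). The call on Herpud1 was lost with DESeq2 (adjusted p = 0.0536), upper quartile scaling (0.0574), at least 10 counts in every library (0.0533) and each library left out (0.0934 to 0.310), and total library size gave -0.28 (0.202). Without control 1, when 4 of all genes passed, Cryab was the single gene of the lists among them, and without control 2, when 57 of all genes passed, Cryab and Atf3 were. Without light-exposed 2, Fkbp5 (adjusted p = 0.148) and Slc7a11 (0.0810, edgeR) did not pass either.

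No gene of the other lists passed after light with edgeR, while DESeq2 passed Sdf2l1 (adjusted p = 0.0483), a chaperone cofactor of the endoplasmic reticulum, and the sensor Atf6 (0.0410). The 2 largest changes of each list, leaving out the 10 genes above, are given as log2 fold change and adjusted p (edgeR). Counts and medians of a list include those of the 10 genes that belong to it. Among heat shock factors, which had 5 tested genes, these were Hsf5 at 0.76 (0.387) and Hsf4 at 0.57 (0.333). The HSP70 family had Hspa4l at -0.39 (0.136) and Hspa12a at 0.38 (0.137) besides the 4 genes already described, and the J proteins had Dnajb5 at 0.45 (0.123) and Dnajb2 at -0.37 (0.120). The medians of these 3 lists lay between -0.14 and 0.11. In the list of chaperonins and mitochondrial folding factors, 12 of 13 genes had negative values, led by Trap1 at -0.31 (0.167) and Lonp1 at -0.30 (0.219). The 20 chaperones of the endoplasmic reticulum had 11 positive and 9 negative values, with Sdf2l1 at 1.14 (0.0549) and Pdia3 at 0.52 (0.172). Sensors of the unfolded protein response had Creb3l2 at 0.50 (0.156) and Atf6 at -0.48 (0.0512). Beside the genes that passed, the second largest values were those of Hspb6 (-0.39, 0.280) among small heat shock proteins, Bag3 (0.76, 0.167) among HSP90 co-chaperones and Edem1 (0.37, 0.242) in the degradation list.

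**Figure D5:**
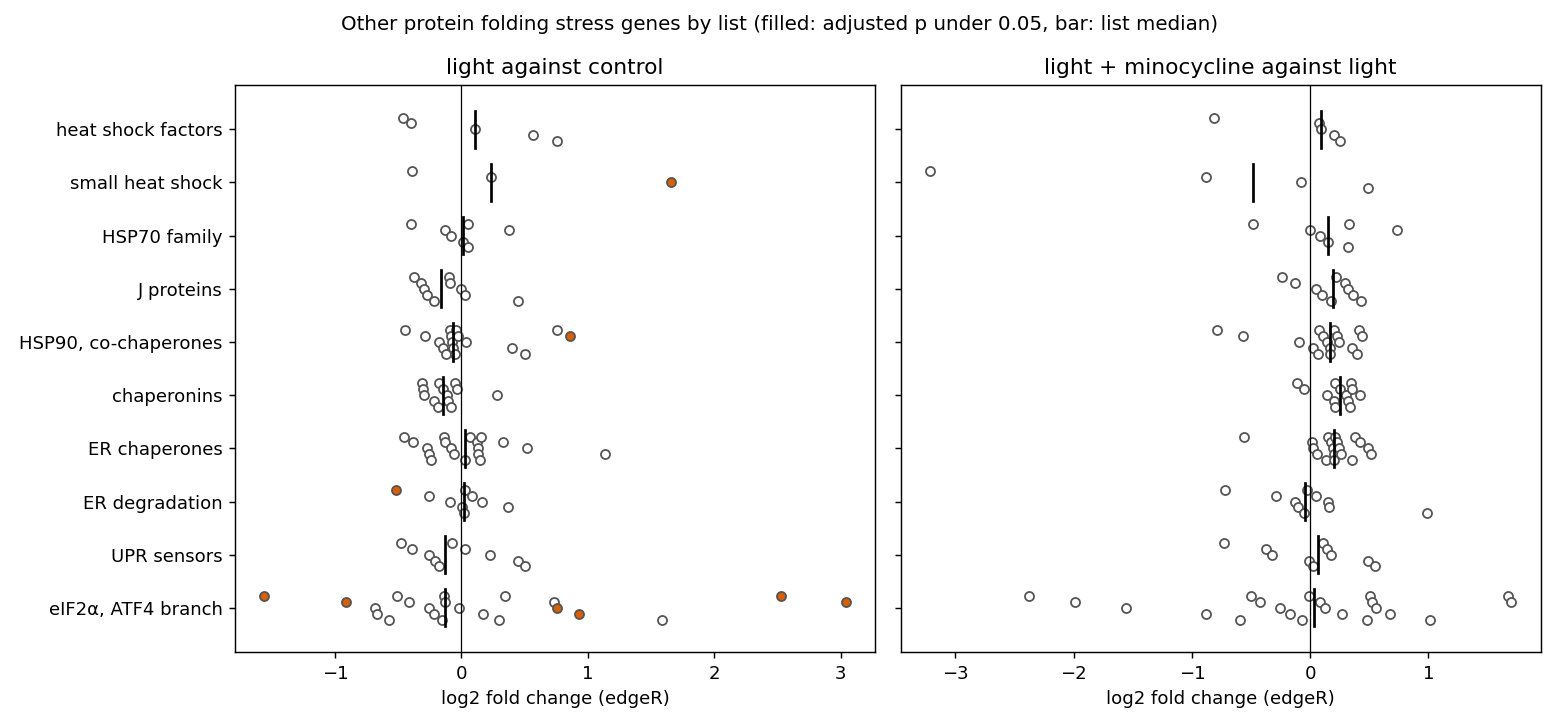
Log2 fold changes (edgeR) of the other protein folding stress genes by list, for light against control (left) and light plus minocycline against light (right); each point is a gene, filled where its adjusted p is under 0.05, and bars are list medians. The 9 filled points on the left include 6 of the eIF2α and ATF4 branch; the right panel has none.

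With minocycline against light alone, 82 of 117 tested genes of these lists had positive values (median 0.15, beside 0.0062 over all genes). None passed an adjusted p of 0.05 (edgeR), while at an unadjusted p of 0.05, 26 were higher and 8 lower, against 9.04% and 12.1% of all genes. DESeq2 passed 13 of the 117, against 8.12% of all genes. The 2 light-exposed libraries enter this comparison as well as the first. Herpud1 had 78.1 and 74.1 CPM with minocycline, above every other library, with a log2 fold change of 0.99 (adjusted p = 0.0638, edgeR), the lowest adjusted p of the lists. Trib3 had 17.5 and 30.9 CPM and Atf3 35.5 and 94.5 CPM, log2 fold changes of 1.68 and 1.70 (adjusted p 0.0709 and 0.143, edgeR), with minocycline B far above A in both. Atf4 had 417 and 482 CPM, a log2 fold change of 0.68 (adjusted p = 0.0905, edgeR). All 4 were among the 13 that DESeq2 passed, at adjusted p from 1.40e-06 for Herpud1 to 0.000728 for Atf4.

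The 6 genes that rose after light all had negative fitted values with minocycline against light alone, and none passed with edgeR in the fit of these 4 libraries. DESeq2 passed 5 of the 6, Nupr1 (adjusted p = 0.000176), Eif2ak2 (0.000243), Cryab (0.000337), Slc7a11 (0.00490) and Fkbp5 (0.0120), and edgeR with all 6 libraries in 1 fit passed Cryab, Eif2ak2, Fkbp5 and Nupr1 (adjusted p 0.0378 to 0.0464). Cryab had 38.8 and 44.0 CPM, Nupr1 2.23 and 2.86 CPM and Eif2ak2 3.94 and 4.71 CPM. All 3 lay between the 2 other groups, at log2 fold changes of -0.88, -2.38 and -1.99 against light alone (adjusted p 0.0698, 0.0832 and 0.0790, edgeR). Fkbp5 had -0.79 (adjusted p = 0.0845) and Slc7a11 -0.88 (0.0698). Psat1 was the weakest, with 47.5 and 42.6 CPM against 49.4 and 72.7 CPM after light alone (log2 fold change -0.43, adjusted p = 0.262, edgeR), still above both controls at 40.5 and 32.4 CPM. The microglia list summed to 90.9 and 38.6 CPM in minocycline A and B, and the reactive glia list to 378 and 306 CPM.

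In the remaining lists, leaving out the 10 genes, the pairs with the largest values in this comparison follow. They are given as log2 fold change and adjusted p (edgeR). Hsf5 had -0.82 (0.354) and Hsf2 0.25 (0.434) among the factors. Hspa2 had 0.73 (0.264) and Hspa12a -0.48 (0.302) in the HSP70 family. Dnajb2 had 0.43 (0.143) and Dnajc5 0.36 (0.267) among J proteins. The chaperonin list, with 11 of 13 genes positive and in all 11 the libraries of both groups apart (26.8% of all genes), was led by Cct3 at 0.42 (0.142) and Cct5 at 0.35 (0.214), subunits of the cytosolic chaperonin that folds actin and tubulin. Endoplasmic reticulum chaperones were positive in 19 of 20, with the largest values in Sdf2l1 at -0.56 (0.380) and Creld2 at 0.51 (0.221). Among small heat shock proteins Cryab and the lens crystallin Cryaa had the largest values, and Cryaa at -3.22 (0.645) had 109 and 0.047 CPM after light and 10.4 and 1.06 CPM with minocycline. Edem1 had -0.72 (0.147), Creb3l1 -0.73 (0.385), Atf6 0.55 (0.0844) and Bag3 -0.57 (0.265).

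Against control, 83 of 116 tested genes were positive with minocycline (median 0.13, beside 0.021 over all genes). None passed (edgeR), 10 were higher and 1 lower at an unadjusted p of 0.05 (5.39% and 1.62% of all genes), and DESeq2 passed 1 (1.18% of all genes), Cryaa, whose controls held 1 and 2 counts against 237 and 20 with minocycline. The endoplasmic reticulum chaperones had 18 of 20 positive and a median of 0.29, the second highest median of the lists after the small heat shock proteins, which had 5 tested genes and a median of 0.80. Of the endoplasmic reticulum chaperones Hspa5 had the largest value (0.62), followed by Pdia3 at 0.60 (adjusted p = 0.526, edgeR) and Sdf2l1 at 0.60 (0.742). Cryab, of the small heat shock proteins, had 0.80 (0.282). The 2 genes with the largest values of the sensors were Xbp1 at 0.55 (0.367), whose spliced mRNA encodes the factor made after IRE1 acts, and Ern1, the gene of IRE1, at -0.34 (0.742). Herpud1 had 0.50 (0.383) and Edem2 -0.36 (0.703) in the degradation list, and Chac1 and Atf3 had 1.02 (0.742) and 0.80 (0.752) in the eIF2α and ATF4 branch. For the heat shock factors, the HSP70 family and the J proteins the pairs were Hsf4 at 0.79 (0.703) and Hsf1 at -0.30 (0.743), Hspa2 at 0.81 (0.703) and Hspa9 at 0.27 (0.742), and Dnaja2 at 0.26 (0.742) and Dnajb5 at 0.23 (0.766). They were Hsp90ab1 at 0.56 (0.725) and Bag2 at 0.49 (0.742) for HSP90 and co-chaperones, and Cct3 at 0.36 (0.720) and Lonp1 at -0.33 (0.742) for chaperonins.

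The pattern of each gene over the 6 libraries was last set beside those of 12312 other genes, as the root mean square difference of log2 CPM centred on each gene's mean. Over 6 libraries of 3 groups this is a description, and genes share depth and tissue makeup. Among the 3 genes nearest to Ddit3 was Atf4, its upstream factor (0.068), after 1700021F05Rik (0.051) and Rdh11 (0.062), a retinol dehydrogenase of photoreceptors. By Pearson correlation the 3 nearest were Rrm1, Rangap1 and Mtmr14 instead, so Atf4 was no longer among them, whereas Calr was among the 3 nearest to Hspa5 by both measures. Nearest to Hspa5 was Calr (0.073), a lectin chaperone of the same compartment. Calr had 311 and 199 CPM in the controls, 245 and 307.5 CPM after light and 353 and 381 CPM with minocycline, the same order of libraries within each group as Hspa5. The other 2 genes near Hspa5 were Btd and Itm2a (both 0.12).

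Hspa1a lay nearest to Vopp1 (0.057), Gnb1 (0.062), which encodes a G protein subunit of rod phototransduction, and Impg1 (0.073), of the matrix between photoreceptors. This distance grows with the spread of a gene, and Hspb8 and Hspa1b varied most, with an SD over libraries of 0.86 and 0.66 on the log2 scale. Hspa1b lay nearest to Aqp1, Ppp1r42 and Elovl4 (0.14 to 0.17), and Hspb8 to Tgfbr3, Slc4a4 and Bmp7 (0.15 to 0.18). Hsp90aa1 lay nearest to Pold2, Eif2b3 and Slc35e4 (0.036 to 0.045) and Hspa8 to Nsdhl, Btd and Scd1 (0.055 to 0.096). Hsph1 lay nearest to Ndufa2, Vps29 and Rps15 and Dnajb1 to C1galt1c1, Kctd10 and Mettl15, all at 0.028 to 0.035; both genes varied little, with an SD over libraries of 0.18 and 0.21 on the log2 scale. Within the 10 genes, the closest pair was Hsph1 and Dnajb1 (0.078), followed by Hspa1a and Hsp90aa1 (0.10), while the near-identical genes Hspa1a and Hspa1b were further apart (0.26).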

How the data were processed

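The authors prepared strand-marked mRNA libraries of retinal RNA, aligned the reads with STAR to mm10 within the RNA Express workflow and deposited a table of counts per gene; versions, gene annotation and use of the strand are not given in the sources used here. The data statement calls the values normalized DESeq2 counts. The deposited counts are whole numbers of unequal totals (15205930 to 22856922 per library) whose DESeq2 size factors ran from 0.800 to 1.29, so they were treated as not yet scaled. Reads that fit several genes can raise or lower genes with copies. The pairs of groups were compared with edgeR 4.0.16 (R 4.3.3), using TMM scaling, filterByExpr, the robust quasi-likelihood F test and a Benjamini-Hochberg threshold of 0.05, with CPM from TMM-scaled totals and a prior count of 2 for log2 CPM. DESeq2 1.42.0, other scalings, filters and thresholds, 1 fit of all 6 libraries, the pair Hspa1a and Hspa1b as 1 gene, a replicate block and each library left out were alternatives. The steps were tested on simulated data.

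The members and lists were chosen with earlier results of these data known. Named are the 10 genes, list genes past the test or else the 2 largest changes of a list, and the 3 nearest tested genes with at least 50 counts on average. No authors' fold changes were used. Gene coordinates and windows came from GENCODE M21, promoters from RefSeq, both on GRCm38. Atf4 and Calr values beside these were chosen after they were seen. Counts of replicates exceeded sampling noise (chi-square per degree of freedom 27.4 to 30.4).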

Additional observations from a re-analysis of the deposited data

How the results depend on the processing

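The 27 log2 fold changes of the 9 tested genes were recomputed under 339 combinations with an alternative: 305 kept direction and side of the threshold, 22 newly passed it and 12 turned direction. For light against control, total library size gave 0.17 for Hsph1, 0.094 for Dnajb1 and 0.094 for Hspa8; this scaling moved the median of all genes to 0.24. With 1 library left out, Hsph1 ranged from -0.26 (without control 2) to 0.12 (control 1), with 0.0089 without light-exposed 1, Dnajb1 from -0.35 (control 2) to 0.081 (control 1), and Hspa8 from -0.41 (control 2) to 0.16 (control 1). Hspa5 ranged from -0.30 (control 2) to 0.40 (control 1), with -0.16 without light-exposed 2. For minocycline against control, Hspa1b ranged from -0.21 (minocycline B, and -0.21 without control 2) to 0.64 (control 1), and Hsp90aa1 from -0.055 (control 2) to 0.29 (control 1). None of the 12 turned values passed the test, and the cause was not tested.

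The count of the 9 (10 without a filter) genes past the test, 0 in each comparison, was higher in some settings. For light against control it was 1 with DESeq2, 3 with no filter and 3 at an adjusted p under 0.1, all lower, where 1915, 2291 and 2816 of all genes passed against 1624 as reported. For minocycline against light it was 5 with DESeq2, 2 with no filter, 1 with all 6 libraries in 1 fit and 1 at 0.1, all higher, where 1197, 732, 488 and 882 of all genes passed against 8. For minocycline against control it was 1 with DESeq2 and 1 with no filter, both Hspb8, where 168 and 187 of all genes passed against 23. With 1 library left out the counts ranged from 0 to 1, 0 to 2 and 0 to 1 in these comparisons; the lone library is then assumed to vary like its counterpart.

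Of the other stress genes, 9 passed for light against control. The count was 14 with no filter, 2 at an adjusted p under 0.01, 19 at 0.1, 2 with a log2 fold change of at least 2, and 1 to 11 with a library left out. Split by direction it was 6 and 3 as reported, 10 and 1 with total library size, and 7 and 7 with no filter. For minocycline against light, where none passed, the count was 13 with DESeq2, 11 with no filter, 7 with all 6 libraries, 12 at 0.1 and 0 to 6 with a library left out. For minocycline against control it was 1 with DESeq2, 1 with no filter and 0 to 3 with a library left out.

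The sources do not say whether the replicate numbers pair control and light-exposed libraries. The deviations of control 1 and light-exposed 1 correlated at -0.012 over 14759 genes. With 2 libraries a group this cannot decide whether they were paired. With the replicate block, 3 of the 9 genes (Hspa1b, Hsp90aa1 and Ddit3, all lower), 17 of the other stress genes and 2525 of all genes passed for light against control. No paired analysis was possible because the minocycline columns, in the other comparisons, carry no number of their own. With 2 libraries a group, outlying samples could not be tested for. Nearest genes by Pearson correlation shared 7 of 27 names with those given. Counting reads anew was not possible here, so the division of reads between Hspa1a, Hspa1b and other copies was not varied.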
